A study of Homo sapiens with 4 samples.

Results

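The Wnt pathway was described here through 45 genes, chosen by name: Wnt ligands and the proteins that secrete them, receptors, the destruction complex, TCF factors, and feedback and target genes. All 45 were found among the 20003 genes with a symbol in each deposited table. The libraries came from HCT116, a human colorectal carcinoma line grown in DMEM with fetal bovine serum, and mRNA-seq libraries were made from its total RNA. HCT116 is known to carry a mutant copy of CTNNB1 that lacks a serine at which beta-catenin is normally marked for destruction, while its APC is intact.

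There were 2 groups of 2 libraries. The control group, shPLKO, comprised libraries 1 and 2, labelled WT in genotype. The knockdown group, shNUDT21, comprised libraries 1 and 5 of cells in which a short hairpin RNA targets NUDT21. The 4 libraries share the line, the medium, an entry of no treatment and the same entry for time. The series text calls the control a scrambled hairpin while the titles name pLKO, the usual hairpin vector. The labels do not say whether 1 and 5 are different hairpins or replicates of 1 hairpin, nor whether any pair came from separate cultures, so every p-value is set against a spread that may be technical only. NUDT21 encodes the subunit of cleavage factor I that binds UGUA in nascent RNA upstream of cleavage sites, and the study asked what its loss does to gene expression.

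In canonical Wnt signalling, secreted ligands loaded with a lipid by PORCN and carried to the surface by WLS bind a frizzled receptor together with LRP5 or LRP6. Dishevelled proteins then disable a complex of APC, AXIN proteins and kinases that otherwise marks beta-catenin for removal through BTRC, and the spared beta-catenin enters the nucleus and acts with TCF and LEF factors. Several of its target genes, among them AXIN2, NKD1, RNF43, ZNRF3 and NOTUM, encode inhibitors of the pathway, which closes a feedback loop. In the intestinal crypt this pathway maintains stem cells, and in most colorectal tumours it is active through mutation of APC or of CTNNB1.

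A pair of short sequence sets shows letters known from this pathway and from NUDT21 in the genes described. The first holds the promoter stretches of the members in which TCF motif letters were found. TCF and LEF factors recognise CTTTGAT and CTTTGAA, and these letters were searched on both strands in the 250 bases before the annotated start of 30 members with an entry in the RefSeq promoter table (GRCh38.p14). Only DKK1 and SP5 held either motif, 2 of 30 members, against 5.94% of 35116 promoters in the table. A member counted when any of its entries held a motif, while the share over the table counts single promoters. Capitals mark the motif, and TTCAAAG is CTTTGAA read on the opposite strand. SP5 has 3 matches at chr2:170715167-170715281, plus strand, and DKK1 has 1 at chr10:52314164-52314214, plus strand.
SP5: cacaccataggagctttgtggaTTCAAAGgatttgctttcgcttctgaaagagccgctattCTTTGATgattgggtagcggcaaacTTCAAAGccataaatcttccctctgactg
DKK1: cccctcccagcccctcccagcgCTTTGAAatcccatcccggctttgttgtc
A match is a description of letters, not a binding site.

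The second set holds the UGUA nearest to the annotated transcript end of 3 members, written with T for U and with the motif in capitals. They were picked after their values were seen, as a ligand, beta-catenin and a secretion gene with 10 or 11 motifs each. Other members that differed in level held fewer or more, with 1 motif in NOTUM, 1 in WNT6, 4 in WNT11 and 43 in NKD1. The annotation is GENCODE v29 on GRCh38. In WNT16, on chromosome 7, the motif lies 259 bases before the end of a 3′ UTR of 1759 bases that holds 11 such motifs. In CTNNB1, on chromosome 3, it lies 85 bases before the end of a 3′ UTR of 1111 bases, also with 11. In WLS, on chromosome 1, it lies 30 bases before the end of a 3′ UTR of 868 bases with 10.
WNT16: ggatgtattttaaTGTAaatgcttatgttt
CTNNB1: atcccaaagttgtTGTAacctgctgtgata
WLS: gtatatgcatatgTGTAcatgcatatcccc
The deposited values are 1 level per gene and hold no measure of where transcripts were cleaved.

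The values are RPKM, read numbers divided by gene length and by library size. The order of levels between genes depends on the length used. The recovered length was 16695 bases for TCF7 and 2921 for TCF7L1, and 18833 for NKD1 and 1533 for NKD2. Library totals recovered from the values were 29963980 to 30459886 reads. NUDT21 stood at 24.3 and 26.9 RPKM in shPLKO and at 3.96 and 3.0 RPKM in shNUDT21, 15.5% and 11.7% of the control mean, a log2 fold change of -2.58 (SE 0.162, limma adjusted p = 0.0406). The shPLKO libraries lay close together, with a median absolute log2 difference of 0.0768 over 11124 genes, against 0.28 between the shNUDT21 libraries. Of 8 epithelial markers, 6 reached 1 RPKM in every library, while VIL1 and CDX1 were near 0. The summed epithelial level was 9871 and 9219 RPKM in shPLKO and 3426 and 4153 in shNUDT21, with KRT8, KRT18 and KRT19 carrying the sum and lower in both knockdown libraries. The other expressed markers, EPCAM, CDH1 and CDX2, were higher in both, EPCAM at 162 and 180 RPKM against 130 and 132. Of 11 markers of fibroblasts, leukocytes and endothelium, 10 stayed under 1 RPKM in every library, and the exception was COL1A1 at 4.38 to 6.96 RPKM. Whether the keratin difference has a part in the Wnt results was not tested.

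**Figure D1:**
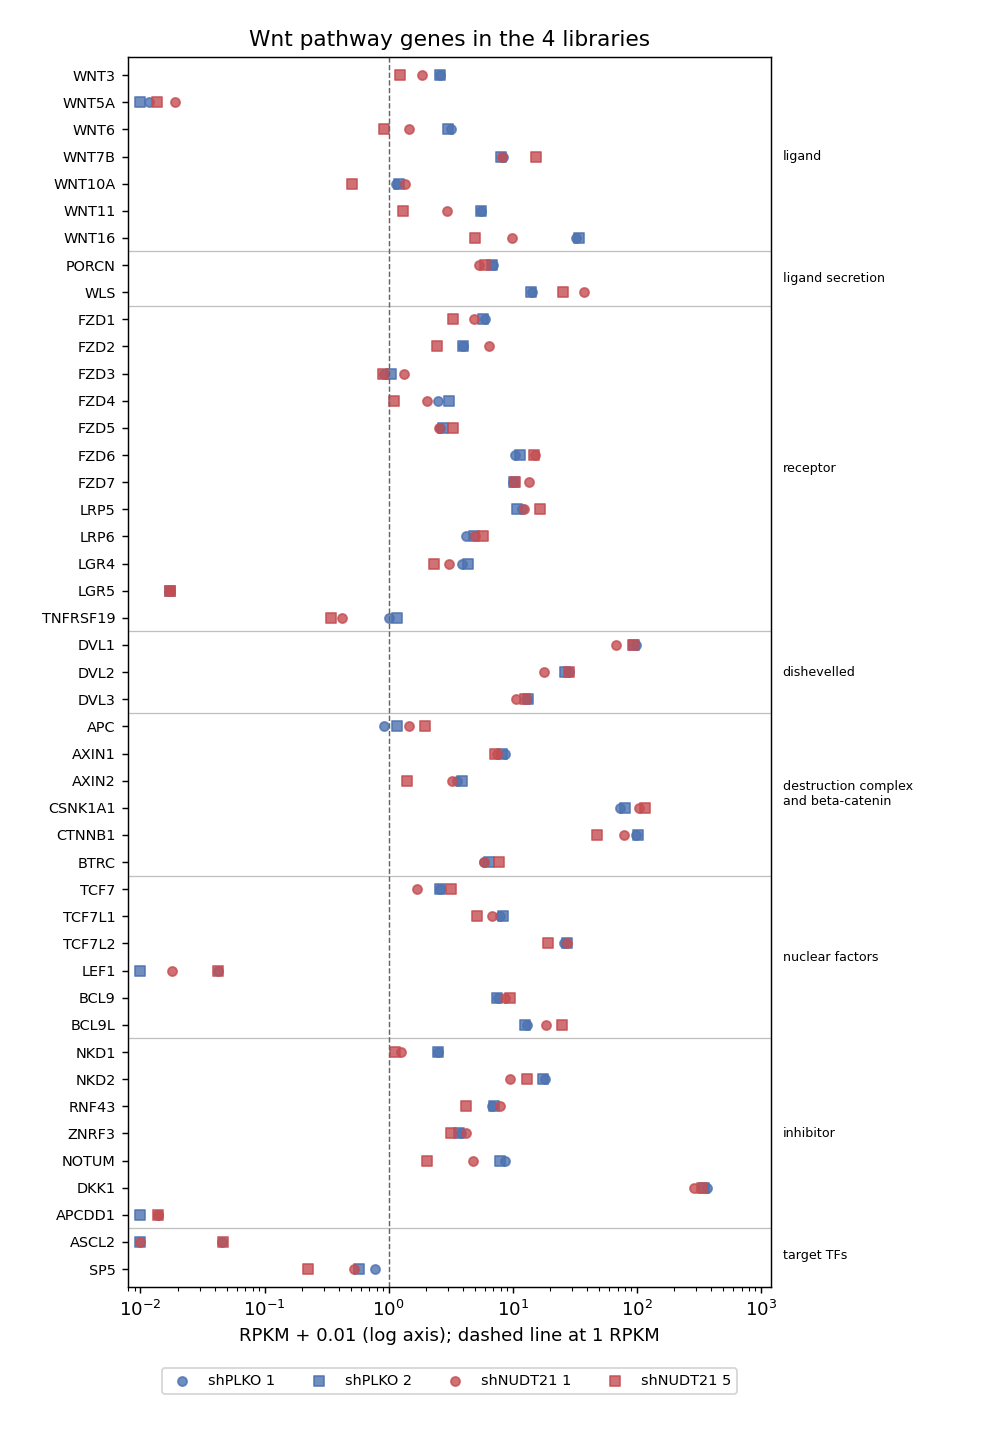
RPKM plus 0.01 of the 45 Wnt genes on a log axis, 1 point per library, with shPLKO in blue and shNUDT21 in red, grouped by role. DKK1 is highest in every library, WNT16 shows a wide gap between the groups, and WNT5A, LGR5, LEF1, APCDD1 and ASCL2 lie near 0.

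With NUDT21 knocked down, 2 members passed the test as lower, the ligand WNT16 and the feedback inhibitor NKD1. No member passed as higher. WLS, with the highest log2 fold change, missed the threshold at an adjusted p of 0.0552 by limma. The test was limma on log2(RPKM + 1), two-sided, with Benjamini-Hochberg adjustment over all 11124 genes whose mean reached 1 RPKM, and 38 members reached that level. The 2 members called lower are 5.26% of those 38. Over all genes the test called 5.82%, with 3.21% lower and 2.61% higher, so the share of members called was near the background. At an unadjusted p under 0.05 there were 15 members, 10 lower and 5 higher, or 39.5% against 33.9% of all genes. Adding 1 RPKM shrinks the log2 fold change of genes at low RPKM, so for those the values given understate the ratio of means.

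The members' log2 fold changes had a median of -0.20 against -0.0027 over all genes tested, and 24 of 38 were negative, 63.2% against 50.2%. In 18 members both shNUDT21 libraries lay below both shPLKO libraries, a pattern that 33.4% of all genes showed. In 9 members both lay above, which 32.8% of all genes showed, and in 11 the groups overlapped. Without either shPLKO library in turn no member passed the test, in fits where almost no gene of any kind did. WNT16 then had adjusted p of 0.30 and 0.315 with log2 fold changes of -2.12 and -2.06, and NKD1 had 0.532 and 0.464 with -0.68 each time. Without shNUDT21 1 or shNUDT21 5 the spread comes from the controls alone, and most genes of any kind passed, so calls there are not read. The members' median log2 fold change was then -0.186 and -0.159, against -0.0219 and 0.0175 over all genes. With a trend on GC content and transcript length removed, the members' median was -0.07 and WNT16 alone passed, at an adjusted p of 0.0499.

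**Figure D2:**
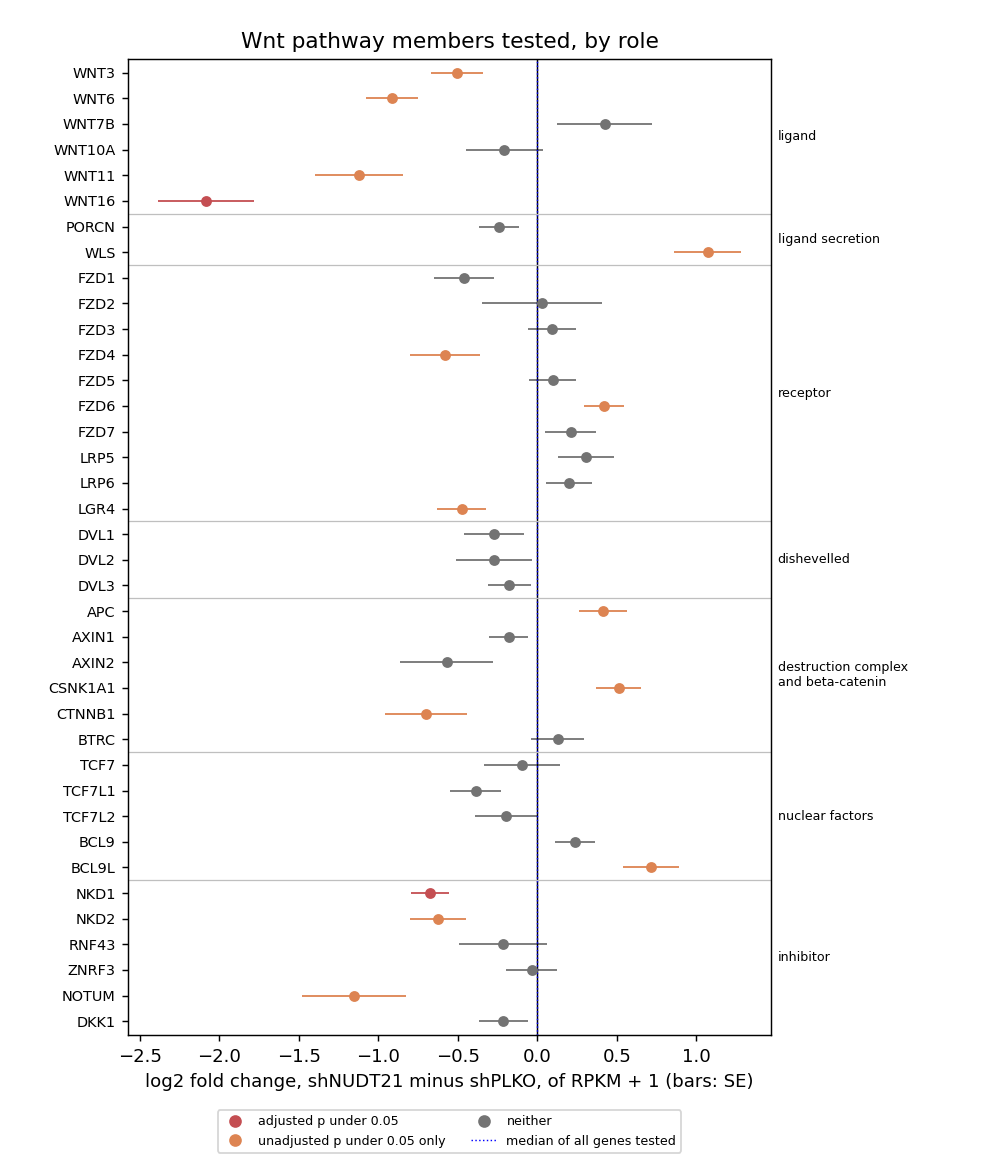
Log2 fold change of RPKM + 1, shNUDT21 minus shPLKO, for the 38 Wnt genes tested, with bars of 1 SE, coloured by the limma test. WNT16 at -2.09 and NKD1 at -0.68 passed the adjusted threshold, and WLS at 1.07 is the highest value.

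Among the member ligands, only WNT16, the one with the highest RPKM in control cells, passed the test, as lower. WNT16, a secreted ligand known for its part in cortical bone, stood at 32.6 RPKM in shPLKO 1 and 34.0 in shPLKO 2. It stood at 9.83 RPKM in shNUDT21 1 and 5.00 in shNUDT21 5, from 960 and 484 reads. Both knockdown libraries lay far below both controls, at 29.6% and 15.0% of the control mean. Its mean fell from 33.3 ± 0.976 to 7.42 ± 3.42 RPKM (SD, n = 2 each), a log2 fold change of -2.09 (SE 0.302, limma adjusted p = 0.0421), the lowest log2 fold change of the 38 members tested. These are bulk libraries, in which fewer cells with a transcript and less of it per cell cannot be told apart.

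WNT6 and WNT11 came next among the ligands. WNT6, a ligand of epithelia, was at 3.15 and 2.99 RPKM in shPLKO and at 1.44 and 0.903 in shNUDT21. The groups did not overlap, with a ratio of means of 0.382. The log2 fold change of -0.92 (SE 0.165) had an adjusted p of 0.0505 by limma, just outside the threshold. It passed with the filter at a mean of 0.5 RPKM and with median-ratio scaling, at adjusted p of 0.0486 and 0.0451. WNT11, known mainly for signalling without beta-catenin and for directing cell movement, was at 5.58 and 5.52 RPKM in shPLKO and at 2.94 and 1.30 in shNUDT21. Again both knockdown libraries were below both controls and shNUDT21 5 was the lowest, with a log2 fold change of -1.12 (SE 0.278, adjusted p = 0.0729). Exons of WNT11 overlap an antisense gene in the annotation, and the strand of counting is not given in the sources used here.

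WNT3, the ligand that Paneth cells supply to intestinal stem cells in the mouse, was at 2.57 and 2.59 RPKM in shPLKO and at 1.85 and 1.23 in shNUDT21. Its groups did not overlap either, with a ratio of means of 0.598 and a log2 fold change of -0.50 (SE 0.163, adjusted p = 0.110). WNT7B, an epithelial ligand, behaved differently in the knockdown libraries. It was at 8.28 and 8.10 RPKM in shPLKO, at 8.21 in shNUDT21 1 and at 15.4 in shNUDT21 5. Only the last library stood apart, and the log2 fold change was 0.42 with a 95% confidence interval from -0.36 to 1.20.

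WNT10A, which acts in skin, teeth and hair, was at 1.14 and 1.20 RPKM in shPLKO, at 1.36 in shNUDT21 1 and at 0.495 in shNUDT21 5, so its groups overlapped. WNT5A, the usual ligand of the branch without beta-catenin, had 0 to 5 reads per library, below what this depth resolves. Of the 6 ligands tested, 5 had a negative log2 fold change, 83.3% against 50.2% of all genes. Their median was -0.71, and only WNT16 passed the test, which called 5.82% of all genes.

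Over all 19 human WNT genes, summed ligand levels were 69.6 and 70.4 RPKM in shPLKO and 40.7 and 50.1 RPKM in shNUDT21. WNT16 made up 46.8% and 48.2% of the sum in shPLKO, 24.2% in shNUDT21 1 and 9.98% in shNUDT21 5. In shNUDT21 5 the ligand with the highest level was WNT9A, which is not a member, at 19.1 RPKM or 38.1% of the sum. WNT7B followed in that library with 30.8% of the sum. The order of ligands therefore differed between the knockdown libraries, with WNT16 still first in shNUDT21 1 but behind WNT9A and WNT7B in shNUDT21 5.

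**Figure D3:**
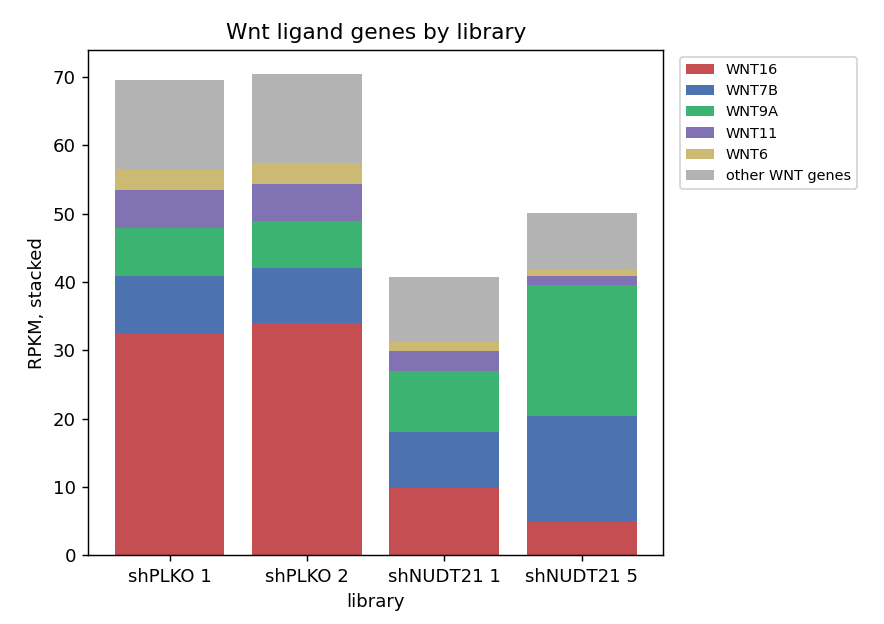
RPKM of WNT genes in each of the 4 libraries, stacked by gene. WNT16 takes 46.8% and 48.2% of the summed level in shPLKO and 24.2% and 9.98% in shNUDT21, while WNT9A and WNT7B take larger shares in shNUDT21 5.

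The secretion genes went in opposite directions. WLS, which carries Wnt proteins to the cell surface, was at 14.2 and 14.0 RPKM in shPLKO and at 37.2 and 25.3 in shNUDT21. Both knockdown libraries were well above both controls, with shNUDT21 1 the higher. The ratio of means was 2.22 and the log2 fold change 1.07 (SE 0.212), the highest among the members, and its adjusted p was 0.0552. WLS shares 111 exon bases with GNG12-AS1 on the opposite strand. It passed with median-ratio scaling, at an adjusted p of 0.0490. PORCN, the acyltransferase that lipidates Wnt proteins, had 6.92 and 6.83 RPKM in shPLKO and 5.36 and 5.98 in shNUDT21, a log2 fold change of -0.24 (adjusted p = 0.247).

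None of the 10 receptor genes tested passed the test by limma, and none did by voom on recovered reads. Their median log2 fold change was 0.09, with 3 at an unadjusted p under 0.05, 30% against 33.9% of all genes. FZD6, a frizzled receptor known for planar polarity, was at 10.4 and 11.5 RPKM in shPLKO and at 15.1 and 14.8 in shNUDT21. The knockdown libraries agreed closely with each other and lay above both controls, with a log2 fold change of 0.42 (SE 0.126, adjusted p = 0.0979). With the GC content and length trend removed it was 0.18 (adjusted p = 0.313). FZD6 and FZD7 were the frizzled genes with the highest RPKM in every library, and FZD6 took 26.0% and 27.3% of the summed frizzled level in shPLKO and 32.0% and 39.5% in shNUDT21.

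FZD4, the frizzled receptor that also binds Norrin, was at 2.50 and 3.06 RPKM in shPLKO and at 2.03 and 1.09 in shNUDT21. The groups did not overlap but shNUDT21 1 lay near shPLKO 1, and the log2 fold change of -0.58 had an adjusted p of 0.147. Exons of FZD4 overlap those of PRSS23 on the opposite strand. LGR4, an R-spondin receptor, was at 3.87 and 4.36 RPKM in shPLKO and at 3.06 and 2.32 in shNUDT21, below both controls, with a log2 fold change of -0.48 (adjusted p = 0.113).

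The coreceptors LRP5 and LRP6 had small positive values. LRP5 was at 11.9 and 10.9 RPKM in shPLKO and at 12.4 and 16.5 in shNUDT21, and LRP6 at 4.20 and 4.89 RPKM against 4.92 and 5.80. Their log2 fold changes of 0.31 and 0.20 had intervals that spanned 0, and that of LRP6 was negative with the GC content and length trend removed. FZD7, with 9.99 and 10.3 RPKM in shPLKO, had 13.4 and 10.5 RPKM in shNUDT21. FZD1 had 5.96 and 5.79 RPKM in shPLKO and 4.83 and 3.28 in shNUDT21, a log2 fold change of -0.46 (adjusted p = 0.163).

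FZD2 went opposite ways in the knockdown libraries, at 6.39 RPKM in shNUDT21 1 and 2.44 in shNUDT21 5 around control values of 3.95 and 3.93. FZD3 and FZD5 overlapped between the groups, with log2 fold changes of 0.09 each. TNFRSF19, also called TROY, an orphan receptor and Wnt target of intestinal stem cells in the mouse, was below the filter of the test. It was at 1.00 and 1.17 RPKM in shPLKO and at 0.413 and 0.330 in shNUDT21, from 188, 218, 77 and 61 reads. With the filter at a mean of 0.5 RPKM its log2 fold change of RPKM + 1 was -0.60 and its adjusted p 0.04997 by limma. The ratio of means of TNFRSF19 was 0.343, a larger change than -0.60 conveys. LGR5, the marker of intestinal stem cells, had 1 read in each library, so no difference was detectable at this depth.

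The 3 dishevelled genes, which relay the signal from frizzled receptors, did not pass the test by limma or voom and had no unadjusted p under 0.05. DVL1 carried 69.5% to 70.4% of their summed RPKM in the 4 libraries. It was at 98.4 and 94.9 RPKM in shPLKO, 68.4 in shNUDT21 1 and 93.0 in shNUDT21 5. DVL2 was at 28.6, 26.5, 18.0 and 28.3 RPKM in the same order, and DVL3 at 13.1, 13.4, 10.7 and 12.5 RPKM. All 3 were lowest in shNUDT21 1, and shNUDT21 5 lay close to the controls.

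None of the 6 genes of the destruction complex and beta-catenin passed the test by limma or voom. An unadjusted p under 0.05 was found in 3 of them, 50% against 33.9% of all genes. CTNNB1, which encodes beta-catenin, was at 98.6 and 102 RPKM in shPLKO, 78.5 in shNUDT21 1 and 48.1 in shNUDT21 5. Both knockdown libraries were below both controls, at 78.1% and 47.9% of the control mean. The spread between them left the log2 fold change at -0.70 (SE 0.258, adjusted p = 0.139). These values are mRNA levels and do not report beta-catenin protein or its mutant allele.

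CSNK1A1, the kinase that primes beta-catenin for destruction, was at 73.6 and 80.4 RPKM in shPLKO and at 104 and 117 in shNUDT21. The knockdown libraries lay above both controls, with a log2 fold change of 0.51 (SE 0.141, adjusted p = 0.0862). APC, the scaffold lost in most colorectal tumours, was at 0.911 and 1.15 RPKM in shPLKO and at 1.46 and 1.95 in shNUDT21. Its levels were low but did not overlap, with a ratio of means of 1.65. The log2 fold change was 0.41 (SE 0.152, adjusted p = 0.140). With the GC content and length trend removed, the log2 fold changes of APC and CSNK1A1 were 0.045 and 0.215. Each of these genes shares exons with another annotated gene on the same strand, so their reads could be split by the authors' counting.

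AXIN1, the constitutive scaffold, was at 8.70 and 8.12 RPKM in shPLKO and at 7.45 and 7.14 in shNUDT21, a log2 fold change of -0.18 with an interval from -0.50 to 0.14. AXIN2, the scaffold induced by beta-catenin and a common readout of the pathway, was at 3.58 and 3.92 RPKM in shPLKO, 3.24 in shNUDT21 1 and 1.41 in shNUDT21 5. Only shNUDT21 5 lay well below the controls, and the log2 fold change of -0.57 (SE 0.292) had an adjusted p of 0.238. AXIN2 shares 1316 exon bases with another annotated gene on the same strand. BTRC, the ubiquitin ligase subunit that recognises marked beta-catenin, overlapped between the groups, at 5.89 and 6.39 RPKM in shPLKO and at 5.91 and 7.79 in shNUDT21.

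Of the nuclear factors, 5 of 6 were tested and none passed by limma or voom. An unadjusted p under 0.05 was found in 1, or 20% against 33.9% of all genes. That gene was BCL9L, a coactivator that links beta-catenin to Pygopus, at 12.9 and 12.6 RPKM in shPLKO and 18.7 and 24.9 in shNUDT21. Both knockdown libraries were above both controls, with a log2 fold change of 0.71 (SE 0.174, adjusted p = 0.0709). BCL9L shares 3925 exon bases with CXCR5 on the opposite strand. Its paralogue BCL9 was at 7.61 and 7.46 RPKM in shPLKO and 8.66 and 9.49 in shNUDT21, a log2 fold change of 0.24 (adjusted p = 0.248).

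TCF7L2, the main TCF factor of intestinal epithelium, held 69.8% to 76.5% of the summed TCF and LEF RPKM in the 4 libraries. That share depends on the recovered lengths, 16695 bases for TCF7 against 4969 for TCF7L2. In reads, TCF7L2 had 3910, TCF7 1306 and TCF7L1 700 in shPLKO 1. TCF7L2 was at 25.8 and 27.4 RPKM in shPLKO, 27.5 in shNUDT21 1 and 19.4 in shNUDT21 5, and its groups overlapped. TCF7L1, mostly a repressor, was at 7.87 and 8.30 RPKM in shPLKO and 6.77 and 5.19 in shNUDT21, a log2 fold change of -0.39 (adjusted p = 0.168). TCF7 was at 2.57 and 2.58 RPKM in shPLKO but at 1.67 in shNUDT21 1 and 3.16 in shNUDT21 5, on either side of the controls. LEF1, often switched on in colorectal tumours, had 0 to 4 reads per library.

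All 6 member inhibitors tested had negative log2 fold changes, against 50.2% of all genes, with a median of -0.42, and NKD1 passed the test. Of 4 further inhibitors tested outside the members, 2 were negative and 2 positive. The sign of RNF43 and ZNRF3 was positive without shNUDT21 5, and that of ZNRF3 also with the GC content and length trend removed. NKD1, a dishevelled-binding feedback inhibitor and Wnt target, was at 2.48 and 2.49 RPKM in shPLKO and at 1.26 and 1.11 in shNUDT21. The libraries of each group agreed closely and the groups lay well apart, with 1424 and 1423 reads against 716 and 625. Its mean fell from 2.49 ± 0.00763 to 1.18 ± 0.106 RPKM (SD, n = 2 each). NKD1 shares 67 exon bases with an antisense gene. The log2 fold change of -0.68 (SE 0.119, limma adjusted p = 0.0495) is on the log2(RPKM + 1) scale, which understates the change of a gene at this level. On recovered reads the voom log2 fold change was -1.08 (adjusted p = 0.0427). NKD1 missed the threshold with a pseudocount of 0.1, with upper-quartile scaling and without the intensity trend, at adjusted p from 0.0511 to 0.0525, and with no filter or with the GC content and length trend removed, at 0.0746 and 0.0563.

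NKD2, its paralogue, was at 18.1 and 17.4 RPKM in shPLKO and at 9.56 and 13 in shNUDT21. The knockdown libraries were below both controls, with shNUDT21 1 the lower, and the log2 fold change was -0.63 (SE 0.178, adjusted p = 0.0901), or -0.41 with the GC content and length trend removed. NOTUM, a secreted esterase that strips the lipid from Wnt proteins, was at 8.62 and 7.93 RPKM in shPLKO and at 4.74 and 2.02 in shNUDT21. It too lay below the controls in both libraries, lowest in shNUDT21 5, and its log2 fold change of -1.15 (SE 0.327) had an adjusted p of 0.0896.

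RNF43 and ZNRF3, ubiquitin ligases that remove frizzled receptors, overlapped between the groups. RNF43 was at 6.82 and 7.06 RPKM in shPLKO, 7.93 in shNUDT21 1 and 4.23 in shNUDT21 5. ZNRF3 was at 3.85 and 3.66 RPKM in shPLKO and at 4.18 and 3.14 in the knockdown libraries. RNF43 shares 4326 exon bases with another annotated gene on the same strand. In RNF43 and ZNRF3 alike shNUDT21 1 was the highest library and shNUDT21 5 the lowest.

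DKK1, the secreted antagonist that binds LRP5 and LRP6 and whose promoter holds a TCF motif match, had the highest level of all 45 members, 370 and 350 RPKM in shPLKO. It was at 288 and 334 RPKM in shNUDT21, below both controls, with a log2 fold change of -0.21 and an interval from -0.61 to 0.18. APCDD1, a membrane inhibitor, had 0 or 1 read per library.

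The members listed as target transcription factors were too low to test. SP5, a direct Wnt target in many tissues and the member with 3 motif matches in its promoter, was at 0.771 and 0.562 RPKM in shPLKO and at 0.521 and 0.215 in shNUDT21, from 73, 53, 49 and 20 reads. Its values did not overlap, but with the filter at a mean of 0.5 RPKM the adjusted p was 0.252. ASCL2, a regulator of intestinal stem cells, had at most 2 reads per library.

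The shNUDT21 libraries differed from each other more than the shPLKO libraries did. Among the 38 members tested the median absolute log2 difference was 0.37 between the shNUDT21 libraries and 0.0561 between the shPLKO libraries. In 22 members the level was lower in shNUDT21 5 than in shNUDT21 1, 57.9% against 55.3% of all genes. AXIN2 and CTNNB1 were at 37.6% and 47.9% of the control mean in shNUDT21 5 and at 86.4% and 78.1% in shNUDT21 1. NUDT21 was at 11.7% and 15.5% in the same libraries, and whether its level has a part in these differences was not tested.

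**Figure D4:**
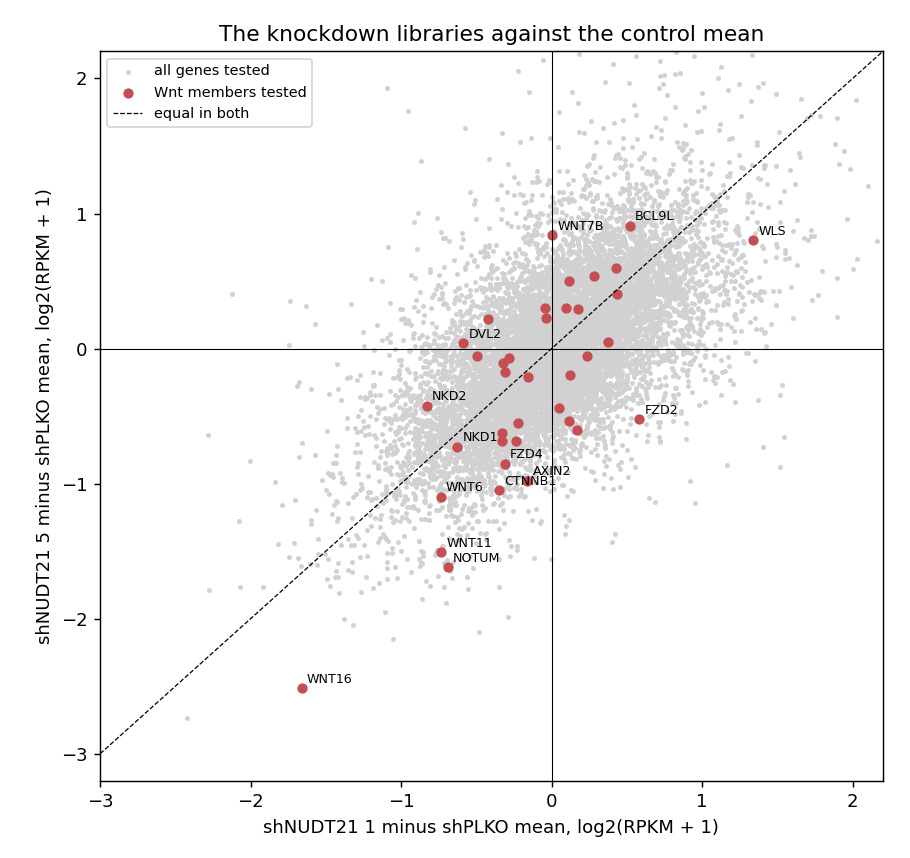
Each shNUDT21 library minus the shPLKO mean on log2(RPKM + 1), with library 1 on the x axis and library 5 on the y axis, for all genes tested in grey and 38 Wnt genes in red; 24 genes lie outside the range plotted. WNT16, WNT11, NOTUM and WNT6 lie low on both axes, while FZD2 and WNT7B differ between the libraries.

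The 3′ UTRs of the members were longer than those of all genes tested, with medians of 1832.5 and 1340.5 bases, and held a median of 10 UGUA motifs against 6. Across 11060 genes the log2 fold change ran with the number of UGUA motifs at a Spearman rho of 0.297, and across the 38 members at 0.234. For motifs per kilobase of 3′ UTR the rho was 0.261 and 0.302. For transcript length it was 0.202 across 11086 genes and 0.35 across the members. The log2 fold change ran against GC content, at a rho of -0.391 across 11086 genes and -0.222 across the members. Genes share their libraries and their base composition in these correlations and are not independent replicates. Of the members called lower, WNT16 had a GC content of 41.4% and NKD1 of 51.6%, against a median of 52.9% over the members. Whether base composition has a part in these calls was not tested.

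The rest of the pathway was read from a list of 107 further Wnt genes, of which 68 were tested. Of these 5 passed, 7.35% against 5.82% of all genes, with a median log2 fold change of -0.02. Of the 5, 3 fell and 2 rose. FZD9, a frizzled receptor, was at 3.13 and 3.35 RPKM in shPLKO and 0.889 and 0.969 in shNUDT21. Its ratio of means was 0.287 and its log2 fold change -1.14 (SE 0.119, limma adjusted p = 0.0406). KREMEN1 and KREMEN2, receptors through which DKK1 removes LRP6 from the surface, fell with it. KREMEN1 was at 20.7 and 20.6 RPKM in shPLKO and 11.4 and 10.6 in shNUDT21, a log2 fold change of -0.85 (adjusted p = 0.0418). KREMEN2 was at 13.3 and 10.9 RPKM against 5.90 and 4.83, a log2 fold change of -1.04 (adjusted p = 0.0454), and its exons overlap PKMYT1 on the opposite strand.

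The genes that rose were CUL1 and CREBBP. CUL1, the scaffold of the ubiquitin ligase that holds BTRC, was at 7.67 and 7.29 RPKM in shPLKO and 14.3 and 16.2 in shNUDT21, a log2 fold change of 0.94 (SE 0.132, limma adjusted p = 0.0416). CREBBP, an acetyltransferase recruited by beta-catenin, was at 3.79 and 3.71 RPKM in shPLKO and 7.14 and 7.11 in shNUDT21, a log2 fold change of 0.77 (SE 0.118, adjusted p = 0.0444). The groups did not overlap in these 5 genes, which adds nothing to the test that picked them. Of all genes tested, 66.2% showed no overlap. None of the 5 passed without either shPLKO library in turn, and with the GC content and length trend removed FZD9 and CREBBP passed.

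Of the genes that did not pass, those with the lowest p in each role were as follows. Among ligands, WNT4, WNT9A, WNT10B and WNT3A had log2 fold changes of -0.68, 0.83, -0.16 and -0.02. Beside FZD9 the receptors LRP4, PTK7 and ROR2 had -0.38, -0.32 and 0.19. Beside CUL1 the kinases CSNK1G3, CSNK1D and GSK3B, of which GSK3B phosphorylates beta-catenin, had 0.70, -0.43 and 0.51.

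Beside CREBBP the nuclear factors CTBP2, EP300 and TNIK had log2 fold changes of 0.68, 0.48 and 0.46. TMEM88 and TRABD2A, inhibitors, had 0.64 and 0.18. In the planar polarity branch ROCK2, ROCK1, CELSR1 and RAC1 had 0.52, 0.45, -0.41 and 0.35. These differences are given as values only, with adjusted p from 0.0523 upwards by limma.

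Of 23 further beta-catenin targets 15 were tested, and none passed by limma or by voom. Their median log2 fold change was 0.09, and 3 had an unadjusted p under 0.05, 20% against 33.9% of all genes. SOX9, a factor of crypt progenitors, had -0.57 (adjusted p = 0.0621), EPHB3, which positions cells along the crypt, 0.69 (adjusted p = 0.0754), SLC12A2 0.91 (adjusted p = 0.0771) and ETS2 0.36 (adjusted p = 0.152). MYC and CCND1, named here for their standing as targets after their values were seen, gave no difference past the test. MYC was at 83.6 and 78.9 RPKM in shPLKO and 87.9 and 85.3 in shNUDT21, with an interval of the log2 fold change from -0.24 to 0.42. CCND1 was at 192 and 189 RPKM in shPLKO and 204 and 140 in shNUDT21, with an interval from -0.74 to 0.39.

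**Figure D5:**
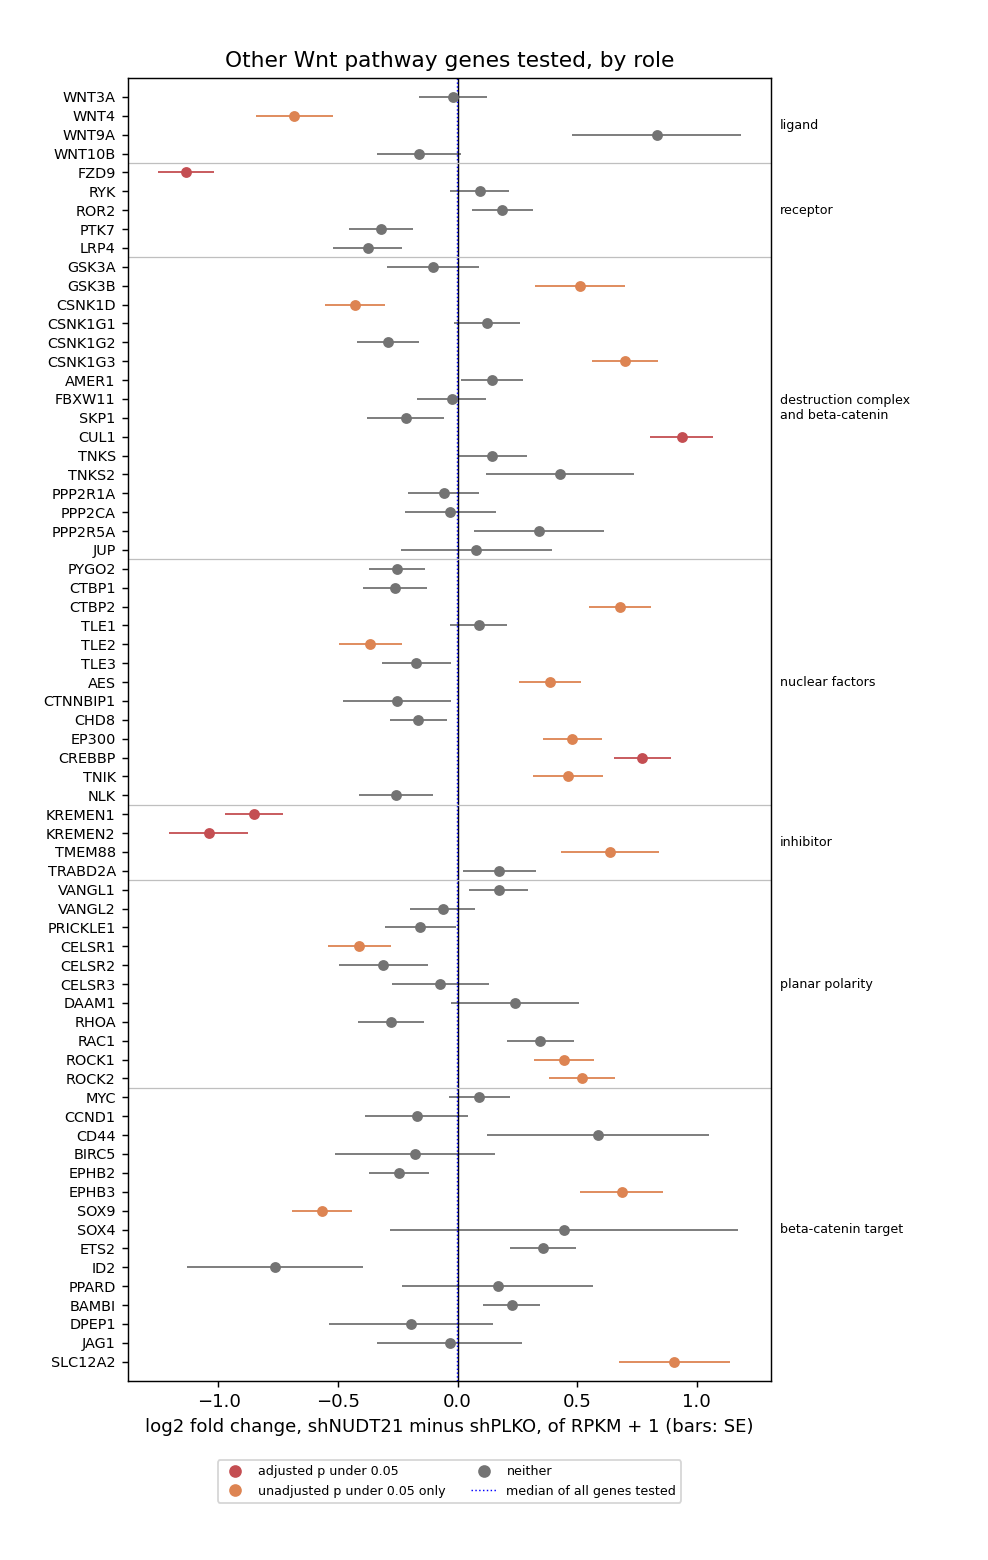
Log2 fold change of RPKM + 1, shNUDT21 minus shPLKO, for the 68 further Wnt pathway genes tested, with bars of 1 SE, coloured by the limma test. FZD9, KREMEN1 and KREMEN2 passed below 0, and CUL1 and CREBBP above 0.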

How the data were processed

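The authors deposited 1 table per library with 20030 rows of a gene symbol and a value, in RPKM by its behaviour. Scaled by library total, the values of a gene stood in whole-number ratios for 99.983% of genes above 0 (tolerance 1e-06). That share does not depend on gene length. Division by length was read from 834 pairs of gene and annotated transcript length that gave the same library total, against 68 for the next total. Bowtie 0.12.2, a read aligner, and the genome build hg18 are named in the submitters' processing notes. The sources used here do not name the counting tool, the annotation or the strand. Of the rows of each file, 27 held a date in place of a symbol and were dropped.

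Genes were tested with limma 3.58.1 (R 4.3.3), its prior variance following intensity, run on log2(RPKM + 1) of all 4 libraries. Genes had to average 1 RPKM or more, which 11124 did, and the fit had 2 residual and 2.71 prior degrees of freedom. Adjusted p under 0.05 was called. The method was also run on simulated data with the same spread in both groups. The libraries here had unequal spread, so the simulation does not settle how the test behaves on them. Depths were 29963980 to 30459886 reads, of which 95.5% to 96.5% fell on genes. The shPLKO libraries differed by more than counting noise (chi-square per gene of mean 6.95 and median 2.12), so they were not 1 library deposited again. This does not show that they came from separate cultures.

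Alternatives were the pseudocount, the filter, each library left out, scaling, the trend, GC content with length, and voom on recovered reads. Promoters came from RefSeq (GRCh38.p14) and 3′ UTRs, exon overlaps and GC content from GENCODE v29, which is not the build of the notes. Exon overlaps are given above for some genes only. Among others, DKK1, FZD6, TCF7 and TCF7L2 also share exon bases with genes on the opposite strand. Members getting a value in every library were those with an unadjusted p under 0.05 or, below the filter, above 1 RPKM in any library, and others were added for completeness. Further genes were named when called or among the 4 lowest p of a role. Members and lists were chosen with earlier results of these data known.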

Additional observations from a re-analysis of the deposited data

How the results depend on the processing

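No paired analysis was possible because the groups share only the number 1. Genes called numbered 647 in the reported test, 0 with no filter on low values (4762 at an unadjusted p under 0.05) and 298 with the GC content and length trend removed. Leaving out 1 library gave 0 to 7644. The low end came without shPLKO 2 and the high end without shNUDT21 1, where the lone knockdown library is assumed to vary like the controls. Wnt members called numbered 2. They were 1 with a pseudocount of 0.1, with upper-quartile scaling, without the intensity trend and with the GC content and length trend removed, each time WNT16. They were 0 with no filter (14 at an unadjusted p under 0.05), 4 with the filter at 0.5 RPKM (with TNFRSF19 and WNT6), and 4 with median-ratio scaling (with WLS and WNT6). Leaving out 1 library gave 0 to 27 members. Other Wnt genes called numbered 5, with 0 without a filter (28 at an unadjusted p under 0.05), 2 with the GC content and length trend removed, and 0 to 51 leaving out 1 library. NUDT21 kept its direction, at -2.58 with no filter (adjusted p = 0.0653) and from -2.73 to -2.42 leaving out 1 library, and did not pass without either shPLKO library. With no filter, more low genes entered the test. The cause of the other shifts was not tested.

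Of the 38 members tested, 27 kept one direction under all 12 alternatives and 11 did not. Those 11 were WNT10A, FZD2, FZD3, FZD5, LRP6, DVL2, BTRC, TCF7, TCF7L2, RNF43 and ZNRF3, none of which had an unadjusted p under 0.05. Every change of direction came from leaving out a shNUDT21 library or from removing the GC content and length trend, and none from scaling. At this depth WNT5A, LGR5, LEF1, APCDD1 and ASCL2 had too few reads to compare.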
